A study of Mus musculus with 9 samples.

Results

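The 77 mitochondrial ribosomal protein genes described here are those of the 16500 genes in the deposited expression table whose symbol begins with Mrpl or Mrps and a number, that are not marked as pseudogenes, and that reached 1 CPM (reads of a gene per 1 M, or mega, reads of its library) in at least 3 libraries. The study sequenced RNA, as paired ends, of murine CD4+ T cells (primary cells, strain C57BL/6) into which a retroviral vector had been brought. The groups were NFAT2_CA, NFAT2_CARIT and Control, the last of which carried the vector that the labels call CTRL, and each group had 3 libraries. All 3 groups share the transduction and the culture medium with serum, and the labels do not give the age of the mice, the vector's promoter, the time after transduction or the share of cells transduced. NFAT2, the product of Nfatc1, is a transcription factor that calcium and calcineurin switch on. Its CA form is known to work without that signal, and the RIT changes are known to weaken its pairing with AP-1, a dimer of Fos and Jun proteins, at joint DNA sites. The labels do not say whether libraries of a group came from separate animals or cultures, and p-values then reflect the spread among libraries alone, which may be technical.

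Mitochondria carry their own ribosomes, which translate the few membrane proteins of the respiratory chain that are encoded in mitochondrial DNA. The ribosomal RNAs come from mitochondrial DNA, but every protein of the large and small subunits is encoded in the nucleus, made in the cytosol and imported. Some of these proteins have counterparts in bacterial ribosomes and the others were added in mitochondria. T cells build up mitochondrial translation after activation, and the capacity for respiration depends on it.

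The libraries held 19.9 to 38.2 M reads, estimated from the spacing of their lowest values, so that 10 CPM rested on 199 to 382 reads. Nfatc1 stood at 342, 336 and 395 CPM in NFAT2_CA, at 240, 245 and 253 CPM in NFAT2_CARIT and at 224, 228 and 188 CPM in Control. Whether reads of the vector insert count towards Nfatc1 is not stated. All 8 T cell marker genes tested were listed, Cd4 included (mean 1620, 1660 and 1571 CPM in NFAT2_CA, NFAT2_CARIT and Control), and their summed level was 7011 to 7536 CPM in NFAT2_CA, 6650 to 6770 CPM in NFAT2_CARIT and 9938 to 10641 CPM in Control. That order rests on Thy1, with a mean of 649, 657 and 4748 CPM in NFAT2_CA, NFAT2_CARIT and Control, and without it the other 7, summed after their values were seen, gave 6379 to 6879, 6002 to 6110 and 5336 to 5652 CPM. The 2 CD8 T cell markers summed to 28.4 to 30.8, 22.6 to 24.0 and 12.5 to 13.7 CPM in the same order, almost all of it Cd8b1. Cd8a had a mean of 0.485, 1.69 and 0.262 CPM. With NFAT2_CARIT against NFAT2_CA, Cd8a was called higher and Cd8b1 lower (log2 differences of 0.85 and -0.42 on CPM + 1). The 3 of 6 B cell markers that were listed summed to 206 to 211, 182 to 204 and 411 to 422 CPM, almost all of it Ighm, and 5 of 8 myeloid and dendritic markers summed to 15.9 to 19.4, 17.1 to 20.7 and 15.8 to 17.0 CPM. Within that list, Itgam was lower (mean 0.701, 1.34 and 7.98 CPM) and H2-Eb1 (10.6, 7.77 and 4.14 CPM) and Cd68 (5.75, 8.22 and 4.12 CPM) were higher with both vectors. The 2 of 4 NK cell markers listed summed to 4.37 CPM at most, and none of 5 erythroid and platelet markers was listed. These markers differ between the groups, and their part in the differences below was not tested. Control replicate 3 stood apart from the other Control libraries for ribosomal and respiratory genes: 60 of the 77 mitochondrial ribosomal protein genes had their highest Control value in it. The other groups were uneven too, with NFAT2_CARIT replicate 1 highest in its group for 48 of the 77 and NFAT2_CA replicate 2 for 45. Counts against Control are also given without Control replicate 3, and the ranges with each library left out are given at the end. In these bulk libraries, fewer cells of a type and less RNA per cell cannot be told apart.

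The 77 genes lie on 17 chromosomes, with at most 11 on one, and 76 encode subunit proteins: 50 of the large subunit, Mrps18a and Mrps30 included, and 26 of the small subunit. Mrps36, named after the small subunit, encodes a protein since placed in the 2-oxoglutarate dehydrogenase complex. Scaled to the length of its annotated exons, Mrpl9 had the highest level over all 9 libraries, 118 CPM per kb, ahead of Mrpl54 with 48.9 CPM per kb and Mrps21 with 39.7 CPM per kb. The median of the 77 genes was 8.25 CPM per kb, 9.20 for the large subunit and 8.06 for the small subunit, and the lowest was 1.14 CPM per kb, for Mrps10. Annotated exons can include long ends that these cells may not use, so the order is approximate. Of the symbols matching the pattern, 5 were pseudogenes and 1 gene, Mrpl23, was too low to enter. Mrpl23 had 0.335, 0.461 and 0.422 CPM in NFAT2_CA, 0.105, 0.22 and 0.651 CPM in NFAT2_CARIT and 0.85, 0.983 and 1.38 CPM in Control, whereas its pseudogene Mrpl23-ps1 was listed at 11.7 to 19.9 CPM. Reads of the gene and of a near-identical copy may be divided between them, so Mrpl23, Mrpl27, Mrpl48 and Mrps36, each with a listed pseudogene, are uncertain. The lowest gene inside the limit was Mrps36, at 2.77 to 4.40 CPM.

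NFAT2_CA against Control asks what the constitutively active factor does to these transcripts. The genes moved in both directions and by small amounts. Mrps28 and Mrpl9 rose most, Mrpl41 and Mrpl36 fell most, and no called gene reached a 2-fold change on the scale of the test, though the ratio of mean CPM of Mrps28 was 2.05. Of the 77 genes, 13 (16.9%) were called higher, 25 (32.5%) were called lower and 39 did not pass, with limma on log2(CPM + 1) at a Benjamini-Hochberg adjusted p under 0.05 over all 13090 genes tested. Over all those genes, 29.0% were called higher and 36.5% were called lower. The median log2 fold change of the 77 genes was -0.09, against -0.06 over all genes tested. The balance depended on the scaling and on single libraries. There were 16 called higher and 19 lower under TMM factors, 15 and 22 after quantile normalization, and 15 and 20 without Control replicate 3. Leaving out NFAT2_CA replicate 1 gave 13 higher and 19 lower, replicate 2 of that group 11 and 27, and replicate 3 14 and 19. Leaving out Control replicate 1 gave 12 higher and 24 lower, and Control replicate 2 11 and 23. Over all 13090 genes, 4263 were higher and 4213 lower under TMM factors, and 3806 and 4729 after quantile normalization. Without Control replicate 3, 3811 of 12904 genes were higher and 4466 lower. In 12 genes all NFAT2_CA libraries lay above all Control libraries, in 25 all lay below, and in 40 the groups overlapped. How many of all genes tested were free of overlap was not counted, so whether these counts are particular to the 77 genes is not known. The authors' deposited table calls 3 of the 77 genes, Mrpl9 higher and Mrps17 and Mrps35 lower, and 21.9% of all its genes.

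By subunit, of the 26 small subunit genes 13 were called lower and 4 higher, with a median log2 fold change of -0.18. Of the 50 large subunit genes, 12 were called lower and 9 higher, with a median of -0.06. That large subunit split turned round, to 9 lower and 11 higher under TMM factors, 10 lower and 11 higher after quantile normalization, and 10 lower and 11 higher without Control replicate 3. Under TMM factors the split of all genes turned round too, to 4213 lower and 4263 higher, so that turn is not particular to the large subunit. The small subunit had 10 lower and 4 higher under TMM factors, 12 and 4 after quantile normalization, and 10 and 4 without Control replicate 3. Without that library the share of small subunit genes called lower was close to that of all genes. Of the 16 small subunit genes with a bacterial counterpart, 9 were called lower and 2 higher, and of the 10 added in mitochondria 4 were lower and 2 higher. Of the 28 large subunit genes with a bacterial counterpart, 5 were called lower and 5 higher, and of the 22 added in mitochondria 7 were lower and 4 higher. The difference between the subunits was not tested.

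**Figure D1:**
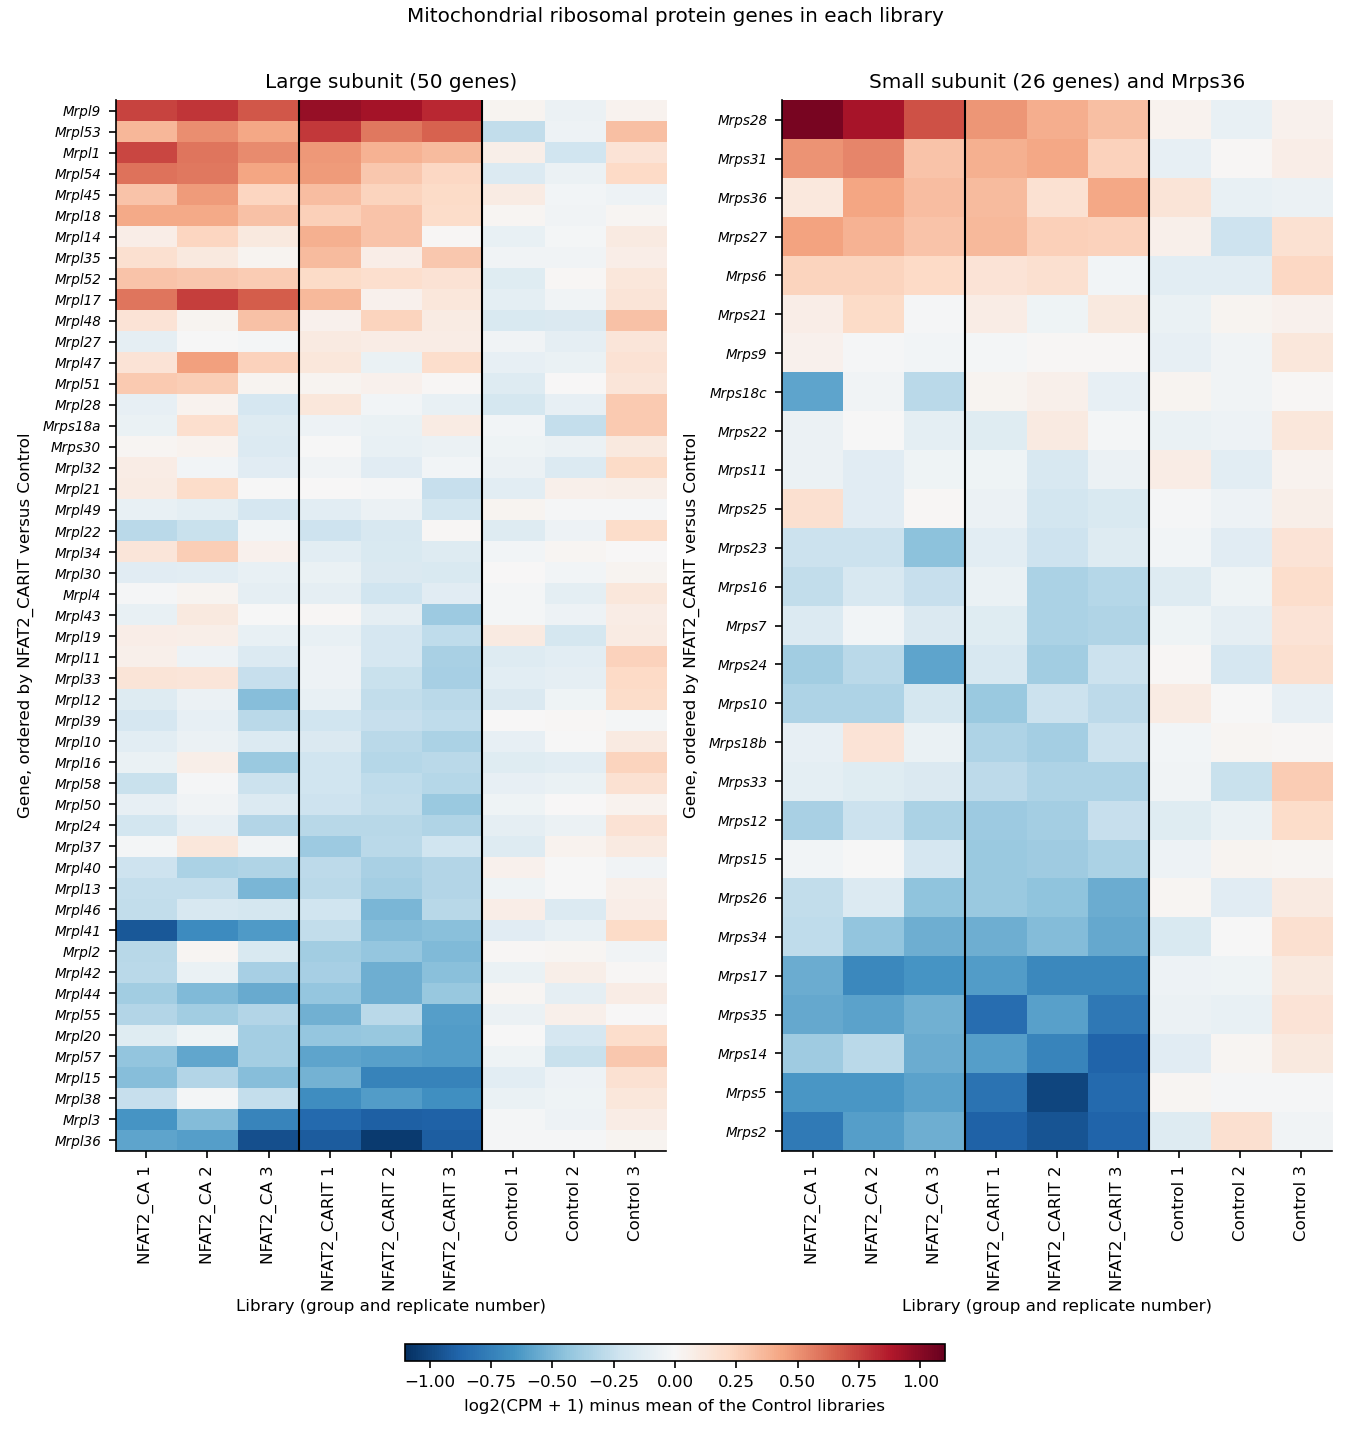
Each row is 1 gene and each column 1 library, and the colour is log2(CPM + 1) minus the mean of the 3 Control libraries; the large subunit is on the left, and the small subunit with Mrps36 on the right. Mrpl9 and Mrps28 stand out as high and Mrpl36 and Mrps2 as low in the NFAT2 libraries, and Control replicate 3 is the highest Control library for 60 of the 77 genes.

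Promoter sequence is shown for 6 genes, the 3 largest rises and the 3 largest falls with NFAT2_CA among genes whose RefSeq start site lies within 100 bases of the start in the authors' table, so that genes that moved apart can be compared. Each line gives the 140 bases before the start site, 5′ to 3′ on the gene's strand, from RefSeq (GRCm38.p6). Capitals mark a match to 1 of 6 motifs searched on both strands: GGAAA (the NFAT core), TGANTCA (AP-1), CACGTG (the Myc E-box), the NRF1 motif, CCGGAAG (ETS factors such as GABPA, with which the NFAT core can overlap) and AAGATGGC (YY1). The regions are chr3:94443196-94443335 on the + strand for Mrpl9, chr7:105811088-105811227 on the - strand for Mrpl17, chr8:22411200-22411339 on the + strand for Mrps31, chr2:24975099-24975238 on the - strand for Mrpl41, chr5:129715357-129715496 on the + strand for Mrps17 and chr2:28467926-28468065 on the + strand for Mrps2.
Mrpl9: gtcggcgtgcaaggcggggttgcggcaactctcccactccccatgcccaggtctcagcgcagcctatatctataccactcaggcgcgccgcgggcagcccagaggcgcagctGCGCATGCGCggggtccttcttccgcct
Mrpl17: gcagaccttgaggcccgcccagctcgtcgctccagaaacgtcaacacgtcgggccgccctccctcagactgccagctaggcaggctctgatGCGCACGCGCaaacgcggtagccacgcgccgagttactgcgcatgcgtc
Mrps31: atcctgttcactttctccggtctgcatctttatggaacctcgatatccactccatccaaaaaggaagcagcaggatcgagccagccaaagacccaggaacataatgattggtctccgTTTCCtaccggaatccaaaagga
Mrpl41: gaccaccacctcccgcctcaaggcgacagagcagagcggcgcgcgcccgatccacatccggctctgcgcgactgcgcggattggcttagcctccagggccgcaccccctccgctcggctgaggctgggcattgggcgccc
Mrps17: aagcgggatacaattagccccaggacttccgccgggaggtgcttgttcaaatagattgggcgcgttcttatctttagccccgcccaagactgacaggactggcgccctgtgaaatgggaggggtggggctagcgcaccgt
Mrps2: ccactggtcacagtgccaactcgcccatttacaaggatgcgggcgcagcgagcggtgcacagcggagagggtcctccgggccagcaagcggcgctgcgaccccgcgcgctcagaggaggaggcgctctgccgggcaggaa

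Mrpl9 and Mrpl17 each held 1 NRF1 match in this stretch, Mrps31 held the NFAT core read on the opposite strand, and the 3 genes that fell held none of the 6 motifs in these letters. In the longer windows described next, Mrps17, which fell, and Mrpl9, which rose, also held the NFAT core. Mrpl17 also held the ETS motif there, and Mrpl41 and Mrps2 held none of the 6 motifs. Over the full RefSeq windows of 68 of the 77 genes, from 250 bases before to 50 after the start, 19.1% held the NRF1 motif, against 11.4% of the 9202 windows of tested genes. The ETS motif was in 35.3%, against 20.1%, and the YY1 motif in 17.6%, against 5.1%. The NFAT core was in 67.6%, against 58.9%, the AP-1 motif in 4.4%, against 4.5%, and the Myc E-box in 7.4%, against 10.4%. The NFAT core was in 6 of 11 windows of genes called higher with NFAT2_CA, in 17 of 21 of genes called lower and in 23 of 36 of the others. A match is a description of the letters and was not tested as a site.

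Mrps28 (chromosome 3, 8802146 to 8923918, 3 exon blocks; GRCm38 here and below) encodes a small subunit protein with a bacterial counterpart. It had 10.4, 9.38 and 8.01 CPM in NFAT2_CA, against 4.67, 4.22 and 4.71 CPM in Control. All NFAT2_CA libraries were above all Control libraries. Its log2 fold change, on CPM + 1 as are all those below, was 0.89 ± 0.12 (SE; limma adjusted p = 4.5e-06), the largest rise of the 77 genes. Mrpl9 (chromosome 3, 94443318 to 94451130) encodes the counterpart of bacterial L9 and is the most abundant of the 77 in CPM. It was at 354, 363 and 339 CPM in NFAT2_CA, against 215, 201 and 216 CPM in Control, groups that did not overlap. The mean was 352 ± 12.3 CPM in NFAT2_CA and 211 ± 8.7 CPM in Control (SD, n = 3 each), a log2 fold change of 0.74 ± 0.06 (limma adjusted p = 9.7e-09). The authors' deposited table gives Mrpl9 the same log2 ratio, 0.74, with an adjusted p of 1.6e-14.

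Mrpl17 (chromosome 7, 105803206 to 105811099), a large subunit gene with a bacterial counterpart, had 26.6, 30.1 and 28.1 CPM in NFAT2_CA, against 16.1, 16.9 and 19.3 CPM in Control. Every NFAT2_CA value was above every Control value, with a log2 fold change of 0.67 ± 0.09 (limma adjusted p = 1.1e-05). Mrpl1 (chromosome 5, 96209493 to 96266727) encodes the protein of the L1 stalk, beside which spent tRNAs leave the ribosome. Its values were 27.0, 24.3 and 23.1 CPM in NFAT2_CA and 16.6, 13.5 and 17.7 CPM in Control, without overlap and with a log2 fold change of 0.61 ± 0.10 (limma adjusted p = 3.8e-05). Mrpl54 (chromosome 10, 81264713 to 81266934), added in mitochondria, stood at 49.5, 48.8 and 44.0 CPM in NFAT2_CA and at 29.0, 30.8 and 37.7 CPM in Control, a change of 0.54 ± 0.09. Mrps31 (chromosome 8, 22411361 to 22429665), a small subunit protein without bacterial counterpart, was at 25.4, 26.2 and 22.3 CPM in NFAT2_CA and at 16.6, 18 and 18.8 CPM in Control, a change of 0.44 ± 0.08. In both of these genes the groups were also apart. The other 7 genes called higher were Mrpl18, Mrpl45, Mrpl47, Mrpl52, Mrpl53, Mrps6 and Mrps27, with log2 fold changes of 0.24 to 0.43.

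Among the falls, Mrpl41 (chromosome 2, 24974117 to 24975098), a large subunit protein also described in human cells as binding Bcl-2, had 6.17, 7.46 and 7.88 CPM in NFAT2_CA, against 11.5, 11.9 and 14.8 CPM in Control. The groups did not overlap, and its log2 fold change of -0.75 ± 0.12 (limma adjusted p = 3.8e-05) was the largest fall. Mrpl36 (chromosome 13, 73328513 to 73332178), the counterpart of bacterial L36, had 10.3, 10.1 and 7.63 CPM in NFAT2_CA and 15.7, 15.7 and 16.2 CPM in Control. It fell by 0.72 ± 0.11 on the log2 scale, with all NFAT2_CA libraries below all Control libraries. Mrpl3 (chromosome 9, 105053239 to 105079888), whose bacterial counterpart reaches towards the peptidyl transferase centre, had 20.6, 23.3 and 19.5 CPM in NFAT2_CA and 32.3, 31.5 and 34.8 CPM in Control. Its change was -0.62 ± 0.08 (limma adjusted p = 4e-06).

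In the small subunit, Mrps2, Mrps5 and Mrps17 encode counterparts of bacterial S2, S5 and S17. Mrps2 (chromosome 2, 28468066 to 28471178) had 8.55, 9.76 and 10.3 CPM in NFAT2_CA and 13.9, 17.5 and 15 CPM in Control, a log2 fold change of -0.64 ± 0.10. Mrps5 (chromosome 2, 127587222 to 127606829) had 21.4, 21.4 and 22.2 CPM in NFAT2_CA and 34.5, 33.6 and 33.7 CPM in Control, a change of -0.62 ± 0.07. Mrps17 (chromosome 5, 129715497 to 129722556) had 29.9, 26.7 and 27.8 CPM in NFAT2_CA and 42.4, 42.6 and 47.7 CPM in Control, a change of -0.64 ± 0.07 (limma adjusted p = 9.4e-07). None of the 3 overlapped between groups. The other 19 genes called lower had log2 fold changes between -0.56 and -0.19, and of all genes called lower, Mrpl24, Mrpl42 and Mrps18c overlapped between the groups.

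**Figure D2:**
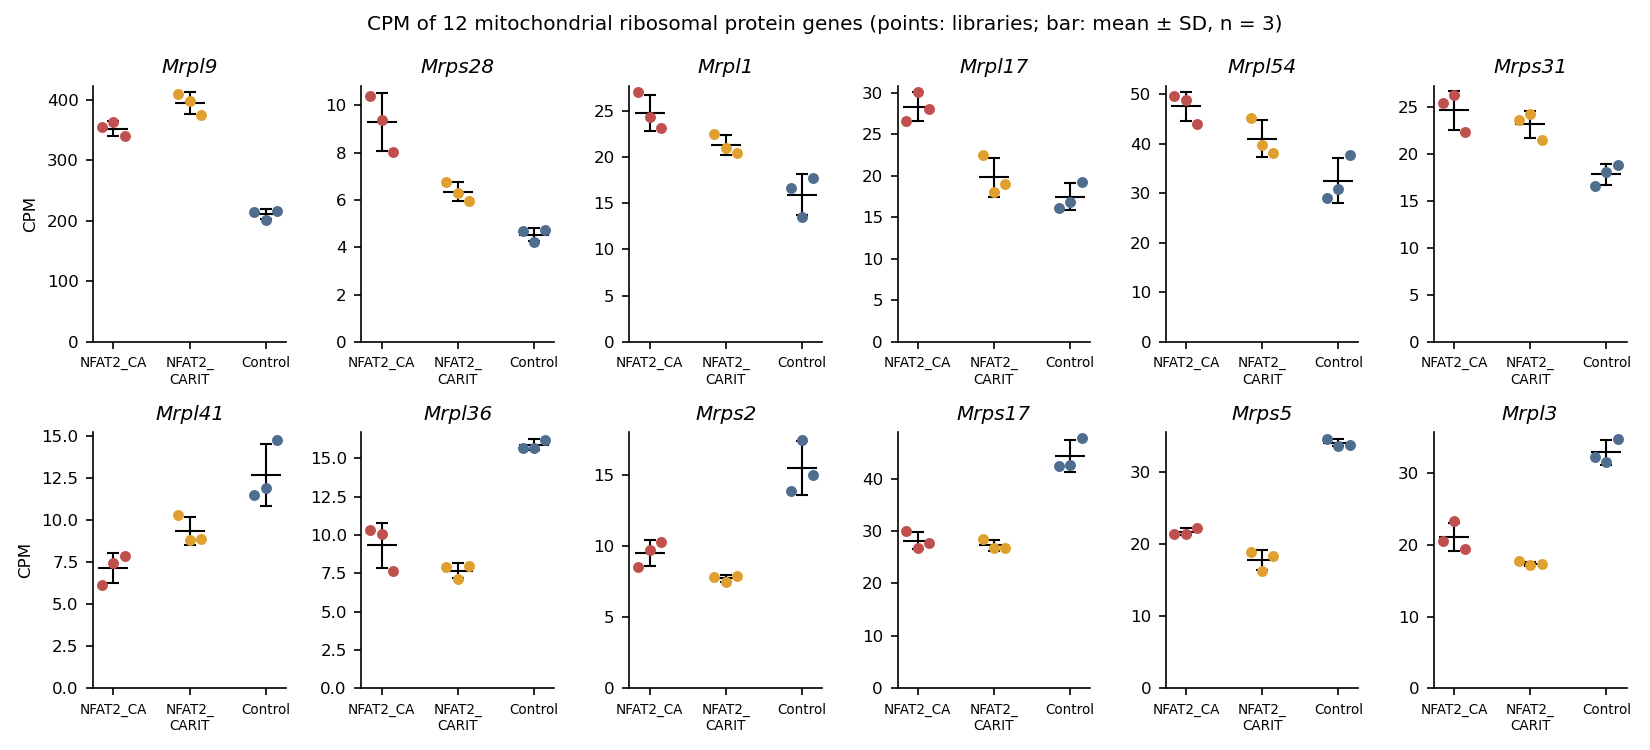
CPM of 12 genes, 6 that rose with NFAT2_CA in the upper row and 6 that fell in the lower row; points are libraries and bars the mean ± SD of 3 libraries, on axes that start at 0. NFAT2_CA and Control do not overlap in any of the 12 genes, and Mrpl9 runs at 339 to 409 CPM in the NFAT2 libraries against 201 to 216 CPM in Control.

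With NFAT2_CARIT, the form impaired in AP-1 cooperation, more genes were lower than higher. Of the 77 genes, 12 (15.6%) were called higher, 36 (46.8%) were called lower and 29 did not pass, where 29.2% of all genes tested were called higher and 41.1% lower. The median log2 fold change was -0.20, against -0.09 over all genes tested. Under TMM factors 14 were higher and 31 lower, after quantile normalization 15 and 28, and without Control replicate 3 15 and 31. Over all 13090 genes, TMM factors gave 4389 higher and 4730 lower. Without Control replicate 3, 3801 of 12904 genes were higher and 5041 lower, so the 31 of 77 were near that share. After quantile normalization 38.2% of all genes were called lower, so the 28 (36.4%) were near that share. All NFAT2_CARIT libraries lay above all Control libraries in 11 genes and below them in 38, and 28 genes overlapped. The share of all genes free of overlap was again not counted. The authors' deposited table calls 8 of the 77, Mrpl9 higher and Mrpl3, Mrpl15, Mrpl36, Mrps2, Mrps5, Mrps17 and Mrps35 lower, and 25.6% of all its genes. In the small subunit 15 of 26 genes were called lower and 3 higher (median -0.27), and in the large subunit 21 of 50 were lower and 9 higher (median -0.17). Without Control replicate 3 these were 11 lower and 4 higher in the small subunit, and 20 lower and 11 higher in the large subunit. The shares lower in both subunits were then close to that of all genes. The small subunit had 11 lower and 3 higher under TMM factors, and 9 lower (34.6%) and 3 higher after quantile normalization, below the 38.2% of all genes called lower there. The large subunit had 20 lower and 10 higher under TMM factors, and 19 and 11 after quantile normalization.

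Mrpl9 rose most with NFAT2_CARIT, to 409, 398 and 374 CPM, against the Control values of 215, 201 and 216 CPM. The log2 fold change was 0.90 ± 0.06 (limma adjusted p = 6.9e-10), and the mean in NFAT2_CARIT was 394 ± 17.8 CPM (SD, n = 3). Mrpl53 (chromosome 6, 83109040 to 83109939), a large subunit protein added in mitochondria, had 22.6, 19.6 and 20.6 CPM in NFAT2_CARIT and 10.4, 12.3 and 16.3 CPM in Control, a change of 0.67 ± 0.12 (limma adjusted p = 0.00014). Its groups did not overlap, although Control replicate 3 was well above the other Control libraries. Of the 790 exon bases of Mrpl53, 695 are also exon of Gm42688 on the same strand, so its reads may not be its own. Mrps28, with 6.75, 6.31 and 5.96 CPM in NFAT2_CARIT, Mrpl1, Mrps31 and Mrpl54 were higher by 0.41, 0.40, 0.36 and 0.33 on the log2 scale. In each of these 4 genes, all NFAT2_CARIT libraries were above all Control libraries.

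Mrpl36 fell to 7.93, 7.11 and 7.97 CPM in NFAT2_CARIT, a log2 fold change of -0.96 ± 0.11 (limma adjusted p = 8.3e-07), the largest fall against Control. Mrps2 was at 7.83, 7.47 and 7.92 CPM (-0.91 ± 0.10), Mrps5 at 18.9, 16.3 and 18.3 CPM (-0.89 ± 0.07) and Mrpl3 at 17.7, 17.2 and 17.3 CPM (-0.88 ± 0.08) in NFAT2_CARIT. All of these lay below the Control libraries given above. Mrps35 (chromosome 6, 147042764 to 147073991), a small subunit protein added in mitochondria, had 27.5, 32.7 and 28.5 CPM in NFAT2_CARIT and 47.6, 47.2 and 55.5 CPM in Control, a change of -0.74 ± 0.08 (limma adjusted p = 4.2e-07). Mrps14 (chromosome 1, 160195215 to 160202170), the counterpart of bacterial S14, had 9.61, 8.79 and 7.77 CPM in NFAT2_CARIT and 13.8, 15.4 and 16.4 CPM in Control, a change of -0.74 ± 0.11. Neither gene overlapped between these groups.

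Both comparisons use the same 3 Control libraries, so their values are given side by side and not as independent support. Against Control, 10 genes were called higher with both vectors (Mrpl1, Mrpl9, Mrpl18, Mrpl45, Mrpl52, Mrpl53, Mrpl54, Mrps27, Mrps28 and Mrps31), 23 were called lower with both, none was called in opposite directions and 24 passed with neither. Mrpl17, Mrpl47 and Mrps6 passed as higher with NFAT2_CA alone, and Mrpl14 and Mrpl35 with NFAT2_CARIT alone. Mrps18c and Mrps23 passed as lower with NFAT2_CA alone, and 13 genes with NFAT2_CARIT alone. Whether a gene differed between the vectors is given by their direct comparison.

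NFAT2_CARIT against NFAT2_CA compares the 2 vectors, which differ by the RIT changes, with no Control library in the difference. Nfatc1 differed as well, with a mean of 246 CPM in NFAT2_CARIT and 358 CPM in NFAT2_CA (log2 difference -0.53 ± 0.08, limma adjusted p = 9.2e-05). Effects of the RIT changes and of the Nfatc1 level cannot be told apart here. Mrpl17, Mrps28 and Mrpl38 were lower with NFAT2_CARIT, and Mrpl41 and Mrpl9 were slightly higher. In all, 12 genes (15.6%) were called lower, 2 (2.6%) were called higher and 63 did not pass, where 16.7% of all genes tested were called lower and 11.9% higher. The median log2 fold change was -0.12, against -0.03 over all genes tested. The 12 comprised 7 large and 5 small subunit genes. The count of falls rested on single libraries, with 6 without NFAT2_CA replicate 2 and 7 without NFAT2_CARIT replicate 2, and was 7 after quantile normalization. All 14 called genes were free of overlap between the groups, as were 14 that were not called, and the share over all genes was not counted. The authors' deposited table calls none of the 77 genes, by its DESeq2 test, none at an unadjusted p under 0.05 either, and 2.84% of all its genes.

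Mrpl17 had 22.5, 18 and 19.0 CPM in NFAT2_CARIT, against 26.6, 30.1 and 28.1 CPM in NFAT2_CA, so its levels with NFAT2_CARIT overlapped those in Control. The difference between the vectors was -0.49 ± 0.09 on the log2 scale (limma adjusted p = 0.00096). Mrps28, with 6.34 ± 0.397 CPM in NFAT2_CARIT and 9.28 ± 1.22 CPM in NFAT2_CA (SD, n = 3 each), was lower by a log2 difference of -0.48 ± 0.12 (limma adjusted p = 0.0053) and still above Control in every library. Mrpl38 (chromosome 11, 116131817 to 116138868), a large subunit protein added in mitochondria, had 10.8, 11.4 and 10.9 CPM in NFAT2_CARIT and 14.9, 17.7 and 14.8 CPM in NFAT2_CA, a log2 difference of -0.48 ± 0.09 (limma adjusted p = 0.0012). In Control, Mrpl38 was at 17.0, 17.3 and 19.7 CPM, a range that NFAT2_CA overlapped.

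Mrpl37 (chromosome 4, 107055874 to 107066868), also added to the large subunit in mitochondria, had 19.3, 20.8 and 22 CPM in NFAT2_CARIT and 25.3, 28.1 and 25.1 CPM in NFAT2_CA, a log2 difference of -0.33 ± 0.08 (limma adjusted p = 0.0081). Mrps14 differed by -0.33 ± 0.11 (limma adjusted p = 0.028) and Mrps18b by -0.31 ± 0.09 (limma adjusted p = 0.015). The Mrps14 call was lost without NFAT2_CA replicate 1 or 2, without NFAT2_CARIT replicate 2 or 3 and after quantile normalization (-0.23, adjusted p = 0.13), and the Mrps18b call without replicate 2 of either group. The remaining falls were Mrpl2, Mrpl3, Mrpl15, Mrpl34, Mrps5 and Mrps15, at -0.31 to -0.24. Of the 12 falls, 9 were also called lower with NFAT2_CARIT against Control, and Mrpl3, Mrpl15, Mrps5 and Mrps14 were called lower in all 3 comparisons.

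Mrpl41 ran the other way, with 10.3, 8.81 and 8.92 CPM in NFAT2_CARIT, between the 6.17 to 7.88 CPM of NFAT2_CA and the 11.5 to 14.8 CPM of Control. Its log2 difference between the vectors was 0.34 ± 0.12 (limma adjusted p = 0.039), and the call was lost without any of the 6 NFAT2 libraries except NFAT2_CA replicate 3. Against Control, the NFAT2_CARIT call of Mrpl41 (-0.40) was lost after quantile normalization (-0.25, adjusted p = 0.063). Mrpl9 was higher by 0.16 ± 0.06 (limma adjusted p = 0.046), and that call was lost without NFAT2_CA replicate 1, 2 or 3, NFAT2_CARIT replicate 1 or 2, or Control replicate 1 or 2, with adjusted p of 0.05 to 0.16 and differences of 0.13 to 0.18, and after quantile normalization (0.12, adjusted p = 0.16).

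**Figure D3:**
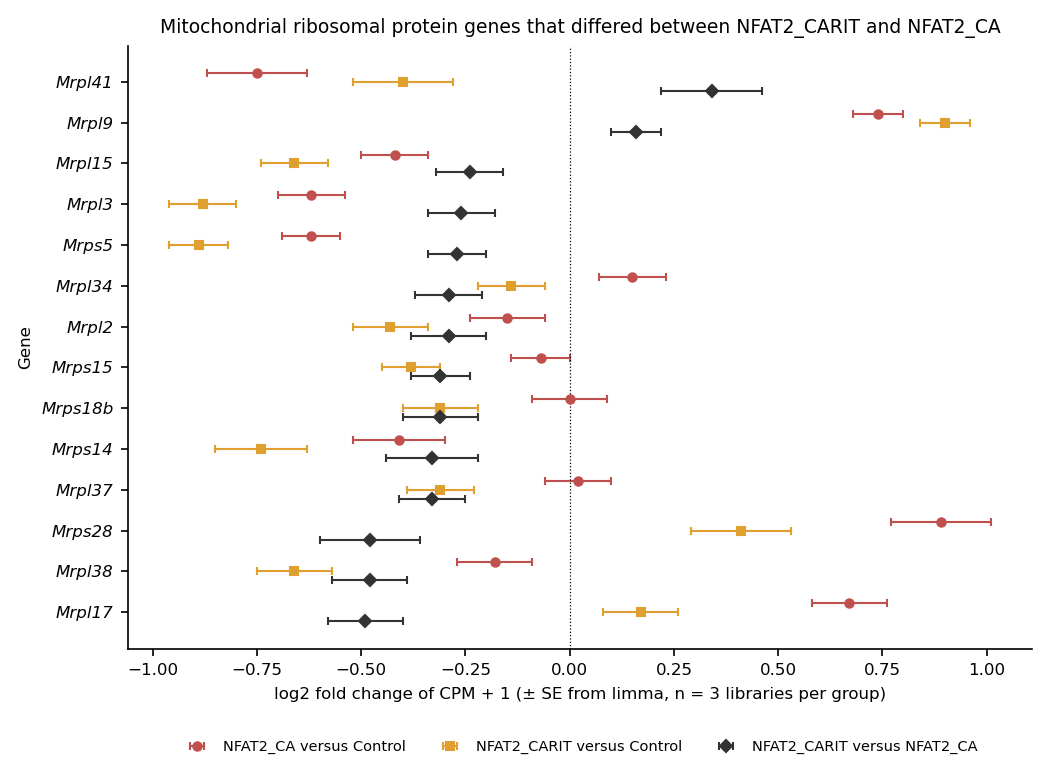
Log2 fold changes of CPM + 1 with SE (n = 3 libraries per group) for the 14 genes that passed between NFAT2_CARIT and NFAT2_CA, with the 2 comparisons against Control beside them. Mrpl17 and Mrps28 lie right of 0 with NFAT2_CA and nearer 0 with NFAT2_CARIT, Mrpl38 and Mrps14 lie further left with NFAT2_CARIT, and Mrpl41 is nearer 0 with NFAT2_CARIT.

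Several genes with particular roles were read out whatever their result. Mrpl12, the counterpart of the bacterial stalk protein that recruits translation factors, had 27.9, 29.6 and 22.1 CPM in NFAT2_CA, 29.1, 25.5 and 25 CPM in NFAT2_CARIT and 27.6, 29.9 and 35.8 CPM in Control. It overlapped between all groups and passed no comparison (-0.22 ± 0.11 with either vector, limma adjusted p = 0.092 for NFAT2_CA and 0.095 for NFAT2_CARIT). Mrpl58, a peptidyl-tRNA hydrolase that frees stalled ribosomes, was lower with NFAT2_CARIT, at 47.8, 45.9 and 44.8 CPM, against 52.3, 53.0 and 62.7 CPM in Control (-0.27 ± 0.08, limma adjusted p = 0.007). Its NFAT2_CA libraries held 46.9, 55.2 and 47.1 CPM and overlapped Control.

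Mrps12, the counterpart of the bacterial decoding centre protein S12, had 8.74, 9.59 and 8.85 CPM in NFAT2_CA, 8.48, 8.65 and 9.47 CPM in NFAT2_CARIT and 10.4, 10.9 and 13.4 CPM in Control. Both NFAT2 groups lay below Control, by -0.31 ± 0.11 and -0.34 ± 0.11 on the log2 scale (limma adjusted p = 0.016 and 0.0088). Without Control replicate 3 neither call held, at -0.21 (adjusted p = 0.088) and -0.24 (adjusted p = 0.052), and without NFAT2_CA replicate 1 the first was lost as well (adjusted p = 0.053). After quantile normalization the NFAT2_CARIT call was lost too (-0.19, adjusted p = 0.1). Mrps30, a large subunit protein in spite of its name, had a mean of 47.5 ± 3.41 CPM in NFAT2_CA, 46.8 ± 1.35 CPM in NFAT2_CARIT and 48.5 ± 3.28 CPM in Control (SD, n = 3 each) and passed no comparison. Mrps36 had 3.93 ± 0.553, 3.98 ± 0.452 and 3.01 ± 0.363 CPM in the same order and passed none, the nearest being 0.31 ± 0.14 with NFAT2_CARIT (limma adjusted p = 0.05, not below the threshold).

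Mammals have 3 relatives of bacterial S18. Mrps18a, whose product sits in the large subunit, had 12.9 ± 1.68 CPM in NFAT2_CA, 12.8 ± 0.884 CPM in NFAT2_CARIT and 13.1 ± 2.68 CPM in Control (SD, n = 3 each) and passed no comparison. Mrps18b, of the small subunit, had 12.2, 11.9 and 13.2 CPM in NFAT2_CARIT, below the 14.7 to 17.5 CPM of NFAT2_CA and the 15.4 to 15.9 CPM of Control (-0.31 ± 0.09 against either). Both calls were lost after quantile normalization, at -0.23 against NFAT2_CA (adjusted p = 0.065) and -0.18 against Control (adjusted p = 0.075). Mrps18c, the one that takes the place of S18 in the small subunit, had 8.11, 12.2 and 10.1 CPM in NFAT2_CA, 12.9, 13.1 and 11.8 CPM in NFAT2_CARIT and 12.9, 12.2 and 12.7 CPM in Control. Its fall with NFAT2_CA (-0.31 ± 0.12, limma adjusted p = 0.031) overlapped with Control and was lost without NFAT2_CA replicate 1 (-0.17, adjusted p = 0.2), without NFAT2_CA replicate 3, without Control replicate 1 or 3, and under TMM factors or quantile normalization. Whether the 3 genes differ in their response was not tested. Some genes hardly varied: Mrps9, chosen after its values were seen, averaged 51.5 ± 1.42 CPM in NFAT2_CA, 51.5 ± 0.588 CPM in NFAT2_CARIT and 51.5 ± 4.24 CPM in Control. In all, 23 of the 77 genes passed in none of the 3 comparisons.

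Of 5 further subunit genes with other names, Ptcd3 and Gadd45gip1 were lower and Chchd1 and Dap3 higher with NFAT2_CA, and without Control replicate 3 only 1 of the 5 was called lower. Dap3, a GTP-binding protein of the small subunit, had 108, 110 and 102 CPM in NFAT2_CA, 98.6, 98.1 and 96.7 CPM in NFAT2_CARIT and 90.8, 89.2 and 99.9 CPM in Control. Its log2 fold change was 0.20 ± 0.06 with NFAT2_CA (limma adjusted p = 0.008) and 0.07 ± 0.06 with NFAT2_CARIT (limma adjusted p = 0.31). With NFAT2_CARIT, Gadd45gip1 (-0.62 ± 0.08), Ptcd3 (-0.58 ± 0.08) and Aurkaip1 (-0.29 ± 0.07) were lower and Chchd1 (0.27 ± 0.09) higher.

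Most of the genes that help to build the mitochondrial ribosome fell. Of 26 assembly genes, 16 (61.5%) were called lower and 2 higher with NFAT2_CA (median log2 fold change -0.36), where 36.5% of all genes tested were called lower. With NFAT2_CARIT 17 (65.4%) were lower and 2 higher (median -0.46), against 41.1% of all genes lower. Mrm1, which methylates the large ribosomal RNA, fell to 6.52 ± 0.954 CPM in NFAT2_CA and 4.62 ± 0.417 CPM in NFAT2_CARIT, against 14.5 ± 1.09 CPM in Control (SD, n = 3 each), log2 fold changes of -1.05 ± 0.12 and -1.47 ± 0.12. Noa1, a GTPase of small subunit assembly, fell by 0.86 ± 0.10 with NFAT2_CA and by 1.43 ± 0.10 with NFAT2_CARIT on the log2 scale, and the difference between the vectors was -0.57 ± 0.10 (limma adjusted p = 0.00073). Rbfa, a small subunit maturation factor, was at 45.0, 44.2 and 40.9 CPM in NFAT2_CA, at 39.9, 40.7 and 40.3 CPM in NFAT2_CARIT and at 79.0, 80.0 and 80.6 CPM in Control. The NFAT2 libraries lay far below Control, without overlap. Fastkd2, which binds the large ribosomal RNA, fell by 0.85 ± 0.15 with NFAT2_CA and by 1.25 ± 0.15 with NFAT2_CARIT. Without Control replicate 3 the assembly counts were 14 lower and 3 higher with NFAT2_CA and 14 lower and 2 higher with NFAT2_CARIT.

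Of 16 tested mitochondrial translation factors, 7 (43.8%) were called lower and 4 (25%) higher with NFAT2_CA, near the 36.5% and 29.0% of all genes tested. With NFAT2_CARIT 11 (68.8%) were lower and 3 higher, against 41.1% of all genes lower, and 9 were lower after quantile normalization. Without Control replicate 3 the counts were 7 lower and 5 higher with NFAT2_CA, and 11 and 3 with NFAT2_CARIT. Lrpprc, which protects mitochondrial messenger RNAs together with Slirp, had 17.3, 14.1 and 17.3 CPM in NFAT2_CA, 12, 15.8 and 15.8 CPM in NFAT2_CARIT and 36.8, 39.2 and 35.7 CPM in Control (-1.15 ± 0.11 and -1.31 ± 0.11). Both NFAT2 groups lay below Control without overlap. Slirp itself was higher with both vectors (0.70 ± 0.10 and 0.49 ± 0.10). Taco1, an activator of Cox1 translation, was lower with both (-0.74 ± 0.12 and -1.0 ± 0.12). The ribosome recycling factor gene Mrrf moved in opposite directions: it had 17.1, 20.2 and 20.2 CPM in NFAT2_CA, 11, 11 and 9.47 CPM in NFAT2_CARIT and 13.8, 12.5 and 16.4 CPM in Control. No 2 of these groups overlapped, and the difference between the vectors was -0.81 ± 0.11 (limma adjusted p = 3.4e-05). Between the vectors, 5 of these 16 genes were lower with NFAT2_CARIT (2 after quantile normalization) and none higher by limma, and none was higher at an unadjusted p under 0.05.

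Of 12 genes of mitochondrial transcription and DNA maintenance, which supply the ribosomal RNA, 8 (66.7%) were lower and 2 higher with NFAT2_CA. With NFAT2_CARIT 9 (75%) were lower and 2 higher. The shares lower were above the 36.5% and 41.1% of all genes tested. The shares higher, 16.7% with either vector, were under the 29.0% and 29.2% of all genes. Without Control replicate 3 these genes were lower in 7 and 8 cases and higher in 2 with either vector. Polrmt, the mitochondrial RNA polymerase, had 10.6, 9.64 and 11.1 CPM in NFAT2_CA, 9.53, 10.3 and 10.2 CPM in NFAT2_CARIT and 21.5, 19.7 and 19.5 CPM in Control (-0.89 ± 0.09 and -0.95 ± 0.09). Tfam, which packs mitochondrial DNA and starts its transcription, was lower (-0.35 ± 0.06 and -0.43 ± 0.06), and the exonuclease gene Mgme1 was higher (1.44 ± 0.10 and 1.31 ± 0.10). Of 8 tested nuclear regulators, 5 (62.5%) were lower and 1 (12.5%) higher with either vector, also without Control replicate 3. The shares of all genes are those just given. TMM factors gave 5 lower and 2 higher with either vector. Quantile normalization gave 5 and 2 with NFAT2_CA, and 5 and 1 with NFAT2_CARIT. Myc, a driver of ribosome production, had 37.8, 34.8 and 36.9 CPM in NFAT2_CA, 30.9, 31.2 and 30.2 CPM in NFAT2_CARIT and 109, 103 and 108 CPM in Control (-1.52 ± 0.06 and -1.76 ± 0.06). Of the factor that binds the ETS motif searched above, the DNA-binding subunit Gabpa was lower (-0.54 ± 0.07 and -0.63 ± 0.07) and the partner subunit Gabpb1 higher (1.53 ± 0.06 and 1.65 ± 0.06). Nrf1, whose motif was also searched, did not pass, at 0.14 ± 0.06 (limma adjusted p = 0.071) and 0.08 ± 0.06 (limma adjusted p = 0.25). These lists, like the 77 genes, were chosen with earlier results of the data known.

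**Figure D4:**
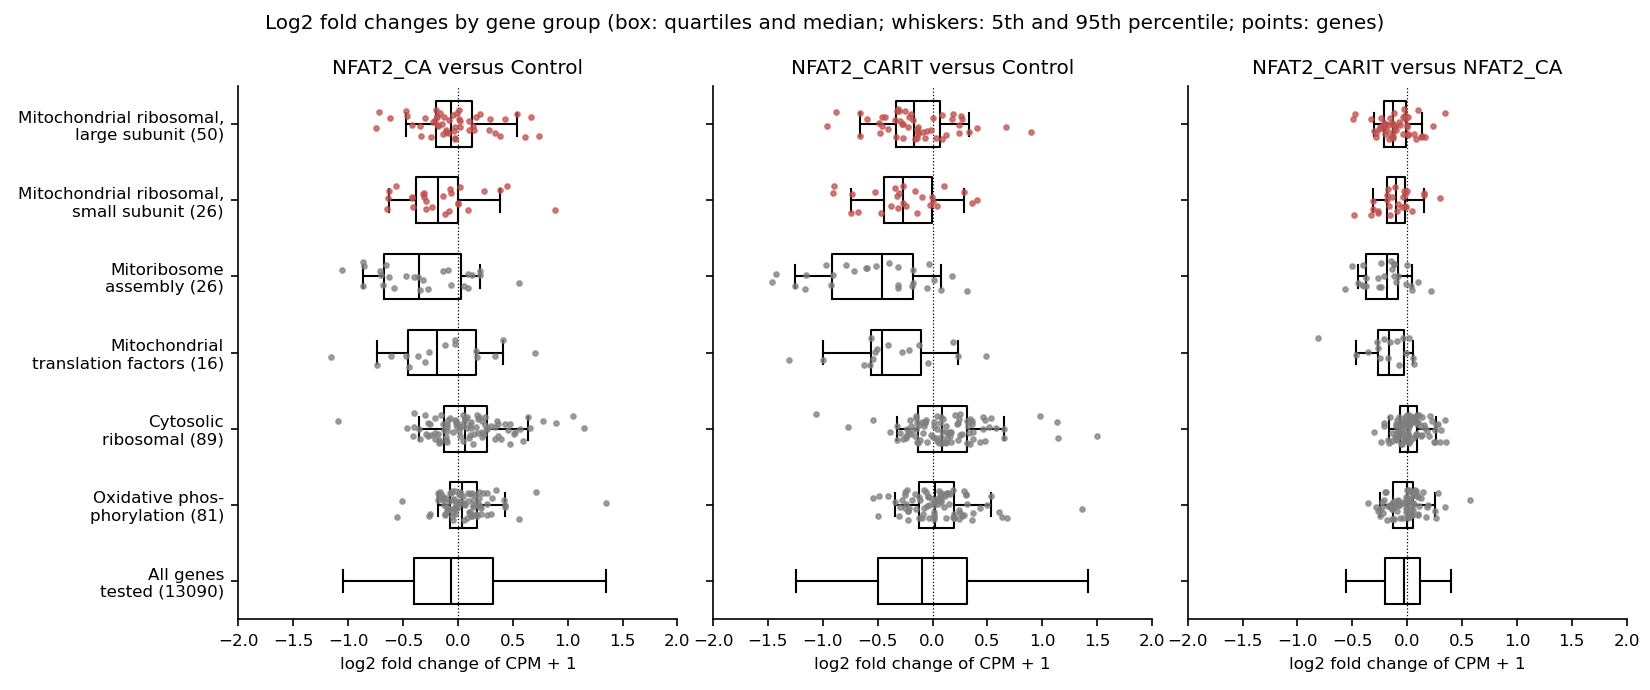
Log2 fold changes of CPM + 1 in the 3 comparisons by gene group, with boxes for quartiles and median, whiskers for the 5th and 95th percentile and points for genes. The assembly genes have medians of -0.36 with NFAT2_CA and -0.46 with NFAT2_CARIT against Control, and cytosolic ribosomal protein genes lie on the other side of 0 (0.06 and 0.09).

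Of 89 cytosolic ribosomal protein genes, which encode the main protein-making machine of the cell, 26 (29.2%) were called higher and 12 (13.5%) lower with NFAT2_CA (median log2 fold change 0.06), and 28 (31.5%) higher and 13 (14.6%) lower with NFAT2_CARIT (median 0.09). The shares called higher were near those of all genes tested, 29.0% and 29.2%, and the shares called lower were under the 36.5% and 41.1% of all genes. Without Control replicate 3 there were 35 higher and 12 lower with NFAT2_CA, and 34 higher and 8 lower with NFAT2_CARIT. TMM factors gave 31 higher and 11 lower with NFAT2_CA, and 34 higher and 5 lower with NFAT2_CARIT. Of 81 nuclear genes for respiratory chain and ATP synthase subunits, whose partners the mitochondrial ribosome makes, 16 (19.8%) were higher and 4 (4.9%) lower with NFAT2_CA (median 0.03), and 19 (23.5%) higher and 13 (16.0%) lower with NFAT2_CARIT (median 0.02), all under the shares of all genes. For these, TMM factors gave 29 higher and 3 lower with NFAT2_CA, and 28 higher and 7 lower with NFAT2_CARIT, and without Control replicate 3 there were 30 higher and 4 lower, and 25 higher and 11 lower. Under TMM factors and without Control replicate 3, the shares higher of both families were above or near those of all genes, counted above. The shares lower stayed under those of all genes. Between the vectors, 2 of the 89 cytosolic genes were lower and 2 higher, and 4 of the 81 respiratory genes were lower and 3 higher. No difference between these families was tested.

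Summed over the 77 genes, the total was 2327, 2406 and 2199 CPM in NFAT2_CA, 2304, 2191 and 2144 CPM in NFAT2_CARIT and 2205, 2186 and 2461 CPM in Control, so the groups overlapped. The subunits are given apart, with no test on sums. The small subunit summed to 592, 599 and 560 CPM in NFAT2_CA and 564, 542 and 540 CPM in NFAT2_CARIT, below the 643, 643 and 727 CPM of Control in every library. The large subunit summed to 1731, 1803 and 1635 CPM in NFAT2_CA, 1736, 1646 and 1600 CPM in NFAT2_CARIT and 1559, 1540 and 1731 CPM in Control, and overlapped. Mrpl9 weighs heavily in the large subunit and in the total. Without it, the remaining 76 genes, those of the small subunit included, summed to 1959 ± 92.3 CPM in NFAT2_CA, 1820 ± 66.3 CPM in NFAT2_CARIT and 2074 ± 148 CPM in Control (SD, n = 3 each). The large subunit by itself was not summed without Mrpl9, so its higher means with NFAT2 may rest on that gene. In the same libraries the cytosolic ribosomal protein genes summed to 32607 CPM in Control replicate 3, against 27439 and 27537 CPM in the other Control libraries, and the respiratory genes to 6788 CPM, against 6109 and 6038 CPM.

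**Figure D5:**
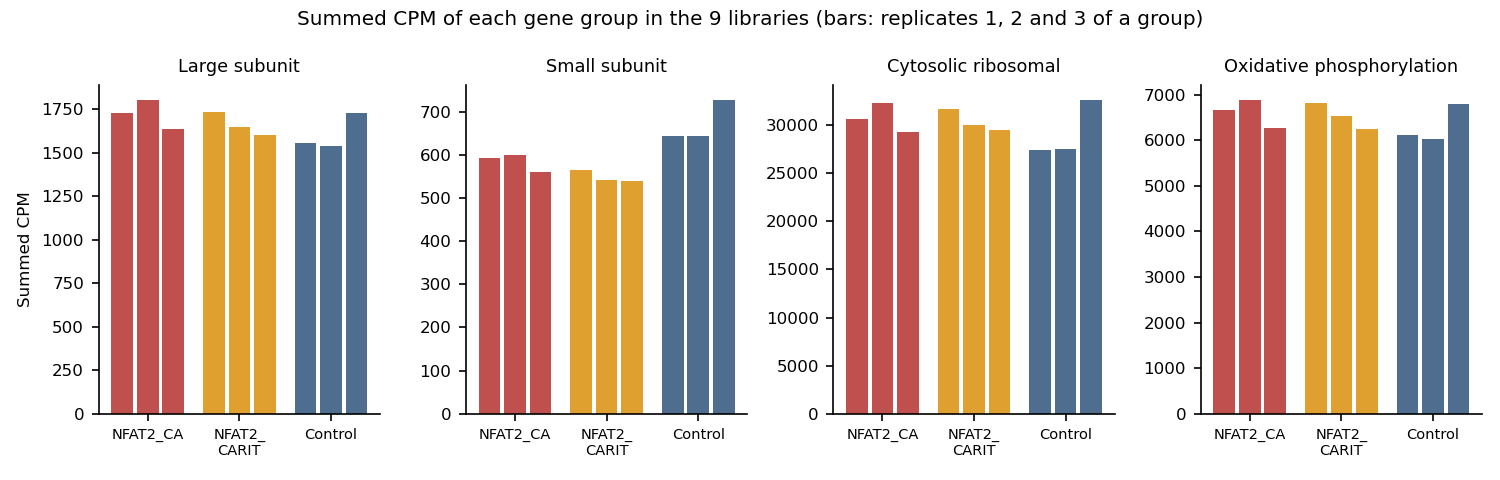
Summed CPM of 4 gene groups in each of the 9 libraries, as bars from 0, with replicates 1, 2 and 3 of a group side by side. Small subunit sums are 540 to 599 CPM in the NFAT2 libraries and 643 to 727 CPM in Control, while the other 3 groups overlap between NFAT2 and Control libraries.

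Many of these genes share their start region with a neighbour on the opposite strand. A protein-coding gene on the opposite strand began within 1000 bases for 33 of the 77 genes (42.9%), against 1930 of 10937 tested protein-coding genes (17.6%) in GENCODE M21, and the difference was not tested. For 30 of the 33 genes the neighbour was tested as well, and Mrpl46 and Mrps11, which are neighbours of each other, both count among the 30. With NFAT2_CA both genes of the pair were called in 12 pairs, 9 in the same direction and 3 in opposite directions, and with NFAT2_CARIT in 18 pairs, 11 in the same and 7 in opposite directions. Over all genes tested, 65.5% were called with NFAT2_CA and 70.3% with NFAT2_CARIT. How often such pairs were called together over all genes was not counted, so whether these counts are particular to the 77 genes is not known. Mrpl54 rose (0.54) beside Apba3 (0.80) with NFAT2_CA, and Mrps5 fell (-0.62) beside Zfp661 (-1.01). Mrpl57 fell (-0.46) while Ska3, which starts 49 bases away, rose (1.93), and Mrps27 rose (0.38) while Ptcd2 fell (-0.30). These pairs were chosen after their values were seen. Exons of 33 of the 77 genes overlap exons of another annotated gene, 7 of them on the same strand as a listed gene. Whether counting used strand is not stated, and without it the reads of such pairs cannot be told apart. Mrps34, for example, shares 1309 of its 2064 exon bases with Mapk8ip3 on the opposite strand, a gene with a mean of 275 CPM, and Mrps25 shares 4590 of 6576 with Nr2c2. For Mrpl9 the overlap is 157 bases of Oaz3, which has a mean of 0.429 CPM.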

How the data were processed

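The values are CPM per gene and library. In the deposited expression table each library's CPM have the same total, apart from an offset of 0.0001 that was subtracted here. The authors' deposited comparison table holds, per the file headers, p-values with a step-up FDR, the ratio of group means, its log2, signed fold changes and a model weight (both scores, not used). Per the submitters' processing notes, the authors used DESeq2 in Partek 10 and build mm10. Not given in the sources used here are the aligner, the counting method and the annotation. Only 81.3% to 84.4% of low values were whole reads within 0.1 read at the estimated depth, so reads were not rebuilt and tests were run on the log scale.

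Genes with at least 1 CPM in at least 3 libraries were tested with limma 3.58.1 (R 4.3.3; trend and robust settings, all 9 libraries, 3 group means) on log2(CPM + 1), with Benjamini-Hochberg adjustment and a threshold of 0.05. Fold changes on this scale understate those of low genes. The test was checked on simulated data. Alternatives were pseudocounts of 0.5 and 5, no filter and a filter of 10 CPM, TMM factors (trimmed mean of M values, computed on the CPM), quantile normalization, a block for replicate number, only the libraries of the groups compared, each library left out, and the authors' deposited table. Named in each comparison were the 6 largest rises and falls among called genes and a fixed set of 12 genes; of the other lists, up to 4 called genes and 7 fixed ones, not all of which are printed. Kinase and binding protein genes that the symbol pattern of cytosolic ribosomal proteins also matches were left out of that list. Coordinates are those of GENCODE M21 (GRCm38), which share the start of all 77 genes in the authors' table. The genes, lists and tests were chosen with earlier results of these data known.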

Additional observations from a re-analysis of the deposited data

How the results depend on the processing

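No called result for a named gene turned its direction under the alternatives tried, but the large subunit split with NFAT2_CA did: 9 genes called higher and 12 lower became 11 and 9 under TMM factors, and 11 and 10 after quantile normalization or without Control replicate 3. The split of all genes with NFAT2_CA turned as well under TMM factors, from 3794 higher and 4780 lower to 4263 and 4213. It did not turn after quantile normalization or without Control replicate 3. The authors' deposited table moved the counts most: it calls 1 of the 77 genes higher and 2 lower with NFAT2_CA (3602 of all genes), 1 and 7 with NFAT2_CARIT (4216), and 0 and 0 between the vectors (468), and 30 of the 38 called results for named genes did not pass in it. Between the vectors, the 2 genes called higher became 0 without the filter and 1 with the replicate block, and the 12 called lower became 7 after quantile normalization. Leaving out 1 library at a time gave, with NFAT2_CA, 11 to 15 higher, 19 to 27 lower and 7898 to 8583 of all genes called; with NFAT2_CARIT, 8 to 15, 31 to 39 and 8513 to 9342; and between the vectors, 0 to 2, 6 to 14 and 2763 to 4215. The cause of these shifts was not tested, apart from the loss of a library. The replicate number as a block gave 12 higher and 24 lower with NFAT2_CA, 12 and 35 with NFAT2_CARIT, and 1 and 11 between the vectors. Correlations of same-numbered libraries were -0.069 to 0.26 over 9 pairs, and 1 exceeded 0.1 (NFAT2_CA and NFAT2_CARIT replicate 3). Pairs with different numbers ran from -0.28 to 0.233. Whether same-numbered libraries share an animal, culture or batch is not stated, and these correlations cannot decide it. Of the called results for named genes, 7 of 38 were lost after quantile normalization, 1 under TMM factors, 2 without a filter, 1 with the block and none with either pseudocount or with only the libraries compared. Precision is limited for 9 genes with a mean under 10 CPM, and by 3 libraries per group.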
